A study of Mus musculus with 8 samples.

Results

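The TGF-β and BMP signalling genes are 34 genes chosen by their known function: ligands, proteins that store or activate the ligands, receptors, Smads, inhibitors and 1 matrix target. All 34 were among the 24786 genes in the count files, and all 34 passed the filter on low counts that left 15254 genes for testing. They were measured by RNA sequencing of hepatic macrophages from mice of the C57BL/6 strain. Monocyte-derived macrophages (MoM), which enter the liver from blood, and Kupffer cells, its resident macrophages, each came from dnTGFβRII mice (TG) and from wild-type mice (WT), with 2 libraries in each of the 4 groups. The transgene is known to encode a truncated TGF-β receptor II that blocks signalling, driven by a Cd4 promoter and meant for T cells, so macrophages are not its intended target. The labels do not say whether the 2 replicates of a group came from separate animals, so p-values measure only the spread between these libraries.

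TGF-β is made in a latent form, held by a propeptide and by latent TGF-β binding proteins (Ltbp), and is released by integrins that contain the αv chain or by thrombospondin 1. A type II receptor then activates a type I receptor, which phosphorylates Smad2 and Smad3 for TGF-β and activin or Smad1 and Smad5 for BMP, and these enter the nucleus with Smad4. Smad6, Smad7, Ski, Skil and the Smurf ligases hold the pathway back. In the liver TGF-β is best known for its part in fibrosis and in restraining T cells, and BMP for the control of iron.

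Promoter sequences of RefSeq (GRCm38.p6), 250 bases before to 50 bases after a gene's start, were matched for 24 of the 34 genes. Bmpr1a and Smad5 are shown first because they are the matched members that passed the test between macrophage types, both lower in MoM. Their capitals mark GGCGCC, a GC-rich element known from promoters that respond to BMP. A further Smad5 promoter, chr13:56703418-56703717, held no GGCGCC and is not shown. Smad6 is shown because its promoter alone among those of the members held the full Smad palindrome GTCTAGAC, which its capitals mark.
Bmpr1a, chr14:34502497-34502796, minus strand: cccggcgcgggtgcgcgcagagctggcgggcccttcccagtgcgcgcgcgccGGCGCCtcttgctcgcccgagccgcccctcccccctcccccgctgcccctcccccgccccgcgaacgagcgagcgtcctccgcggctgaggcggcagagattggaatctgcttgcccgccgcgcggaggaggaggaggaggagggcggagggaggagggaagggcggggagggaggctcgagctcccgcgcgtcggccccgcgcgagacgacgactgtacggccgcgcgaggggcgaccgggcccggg
Smad5, chr13:56702760-56703059, plus strand: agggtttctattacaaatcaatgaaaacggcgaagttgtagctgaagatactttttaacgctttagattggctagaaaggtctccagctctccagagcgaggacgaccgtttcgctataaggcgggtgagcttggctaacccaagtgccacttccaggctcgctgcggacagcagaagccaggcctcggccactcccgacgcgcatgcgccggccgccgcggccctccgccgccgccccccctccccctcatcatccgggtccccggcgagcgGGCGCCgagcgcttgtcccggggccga
Smad6, chr9:64022010-64022309, minus strand: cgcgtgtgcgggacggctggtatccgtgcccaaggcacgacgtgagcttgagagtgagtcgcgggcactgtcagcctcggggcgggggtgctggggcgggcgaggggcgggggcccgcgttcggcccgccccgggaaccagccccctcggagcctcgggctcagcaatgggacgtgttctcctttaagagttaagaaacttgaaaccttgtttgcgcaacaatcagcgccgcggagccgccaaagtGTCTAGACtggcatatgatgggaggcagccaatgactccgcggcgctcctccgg
The palindrome began 4 bases before the start of Smad6. Searched on both strands, it was in 70 of all 32851 promoters, or 0.213%. The element GGCGCC was in 11.9% of all promoters and in 10 of the 34 promoters of members, from 8 genes. Promoters of Smad5 and of Ltbp4 overlapped, so the same site of each gene was counted more than once among the 10. The shorter Smad site CAGAC was in 49.6% of all promoters and in 16 of the 34, from 13 genes. None of the 3 motifs overlapped another in these promoters. A match describes letters and not a bound site.

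Library totals were 26190194 to 30308132 counts, and the smallest total still gave 0.113 CPM or less for 3 counts. Levels are given as CPM, counts relative to library size after TMM scaling. The 8 markers of monocyte-derived cells, among them Ccr2, summed to 2213 and 3961 CPM in MoM TG and to 1231 and 2205 CPM in MoM WT, against 149 and 190 CPM in Kupffer TG and 191 and 140 CPM in Kupffer WT. The 9 Kupffer markers, among them Clec4f, summed to 578 and 340 CPM in MoM TG, 9098 and 190 CPM in MoM WT, 29431 and 14613 CPM in Kupffer TG, and 29616 and 30739 CPM in Kupffer WT. MoM WT replicate 1 thus had a far higher sum of Kupffer markers than the other MoM libraries. The 12 endothelial markers reached a sum of 8843 CPM in Kupffer TG replicate 2 and of 5728 CPM in that MoM library. In the remaining 6 libraries their sum lay between 595 and 2406 CPM. None of the 12 was at 0 in any library. In Kupffer WT much of that sum was Cdh5, with 1277 and 1300 CPM. The 4 pan-macrophage markers summed to 2205 and 1812 CPM in MoM TG and to 3838 and 1109 CPM in MoM WT. In Kupffer TG they summed to 11057 and 5799 CPM, and in Kupffer WT to 10940 and 11740 CPM. The 5 markers of B and plasma cells summed to 121 to 317 CPM in MoM libraries and to 22.6 to 82.3 CPM in Kupffer libraries. Mast cell and basophil markers summed to 1.05 to 64.6 CPM and to 0 to 3.61 CPM. In bulk RNA, fewer cells of a type and less RNA per cell cannot be told apart.

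Levels between genes were compared as RPKM, CPM per kilobase of exon, over all 8 libraries. Tgfbi, a secreted matrix protein induced by TGF-β, had the highest mean of the 34 genes at 115 RPKM, and Tgfb1 came second at 66.6 RPKM. Skil followed at 44.1 RPKM and Tgfbr2 had 32.6 RPKM. Ltbp4 averaged 36.9 RPKM, but 11.8 RPKM without MoM WT replicate 1 and Kupffer TG replicate 2. At the low end Itgb8 had 0.0328 RPKM, Ltbp1 0.0817 RPKM and Ltbp2 0.167 RPKM. In every library 6 members had at least 100 CPM (Tgfb1, Tgfbr2, Ski, Skil, Tgif1 and Tgfbi), and 4 stayed under 10 CPM in every library (Tgfb2, Ltbp1, Ltbp2 and Itgb8).

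MoM differed from Kupffer cells in 4 of the 34 genes when the TG and WT differences were averaged, at an adjusted p below 0.05. Thbs1 rose in MoM, and the BMP receptors Bmpr1a and Acvrl1 and the BMP-responsive Smad5 fell. Of all genes tested, 18.7% were called in this comparison, so 4 of 34 is not a high count. The background was 10.6% for calls higher in MoM and 8.05% for calls lower in MoM, against 1 and 3 of the members. In 3 members (Tgfb1, Thbs1 and Ltbp3) all 4 MoM libraries lay above all 4 Kupffer libraries, beside 14.8% of all genes. In 4 members (Tgfbr2, Bmpr1a, Acvrl1 and Smad5) all 4 lay below all 4, beside 11.4% of all genes. The median log2 fold change of the members was 0.20 and that of all genes was 0.09.

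Within TG libraries, 1 member was called between MoM and Kupffer cells, Bmpr1a, against 2.5% of all genes. It was lower in MoM, as were 0.656% of all genes, while 0 members were higher, beside 1.84%. Within WT libraries edgeR called 0 members, against 1.17% of all genes (1.11% higher and 0.059% lower in MoM), with 11 members at an unadjusted p below 0.05 beside 25.4% of all genes. There DESeq2 on all 8 libraries called 10 members and 14.9% of all genes. Groups did not overlap for 12 members higher and 6 lower in MoM TG, beside 29.1% and 23.8% of all genes. The same held for 12 members higher and 13 lower in MoM WT, beside 38.5% and 29.7% of all genes. These comparisons share libraries with the average over genotypes and are not separate evidence.

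**Figure D1:**
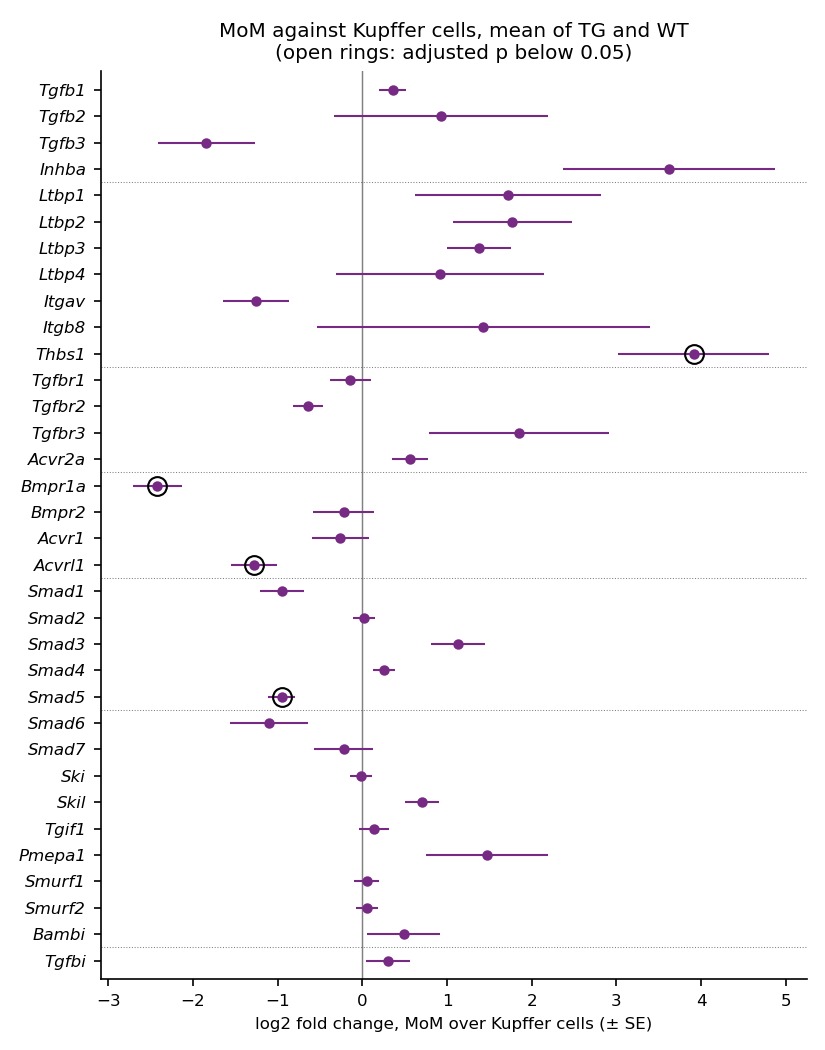
Log2 fold change of each of the 34 genes in MoM over Kupffer cells, averaged over TG and WT, with bars of 1 SE; members are grouped by role, and open rings mark an adjusted p below 0.05. Thbs1 lies at 3.91, Acvrl1 at -1.28, Smad5 at -0.95 and Bmpr1a at -2.42.

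No member passed the test between TG and WT, in either macrophage type or on average. In Kupffer cells edgeR called 0% of all genes and 0 members. There 2 members were at an unadjusted p below 0.05, beside 5.94% of all genes. DESeq2 on all 8 libraries called 0 members, beside 1.31% of all genes. In MoM edgeR also called 0% of all genes and 0 members. There 5 members were at an unadjusted p below 0.05, beside 6.47% of all genes. DESeq2 on all 8 libraries called 1, Bmpr1a, beside 0.733% of all genes. Averaged over both types edgeR again called 0% and 0 members, with 1 at an unadjusted p below 0.05 beside 6.4% of all genes. Of the members DESeq2 called Bmpr1a alone, beside 1.29% of all genes.

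Groups of 2 libraries were often apart without a call. In Kupffer cells 5 members were higher and 9 lower in both TG libraries than in both WT libraries, beside 16.7% and 17.7% of all genes. In MoM 7 were higher and 7 lower in TG without overlap, beside 19.2% and 20% of all genes. Only Bmpr1a and Ski were lower in TG without overlap in both types, beside 2.92% of all genes, and 0 members were higher in both, beside 3.52%. The median absolute log2 fold change between TG and WT in Kupffer cells was 0.72 for the members and 0.34 for all genes. In MoM it was 0.45 for the members and 0.35 for all genes. In Kupffer cells 10 of the members were more than 2 times as high in TG replicate 2 as in every other Kupffer library. That library had the highest endothelial markers. The share of all genes that did so is not given, so the 10 are not shown to be unusual.

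**Figure D2:**
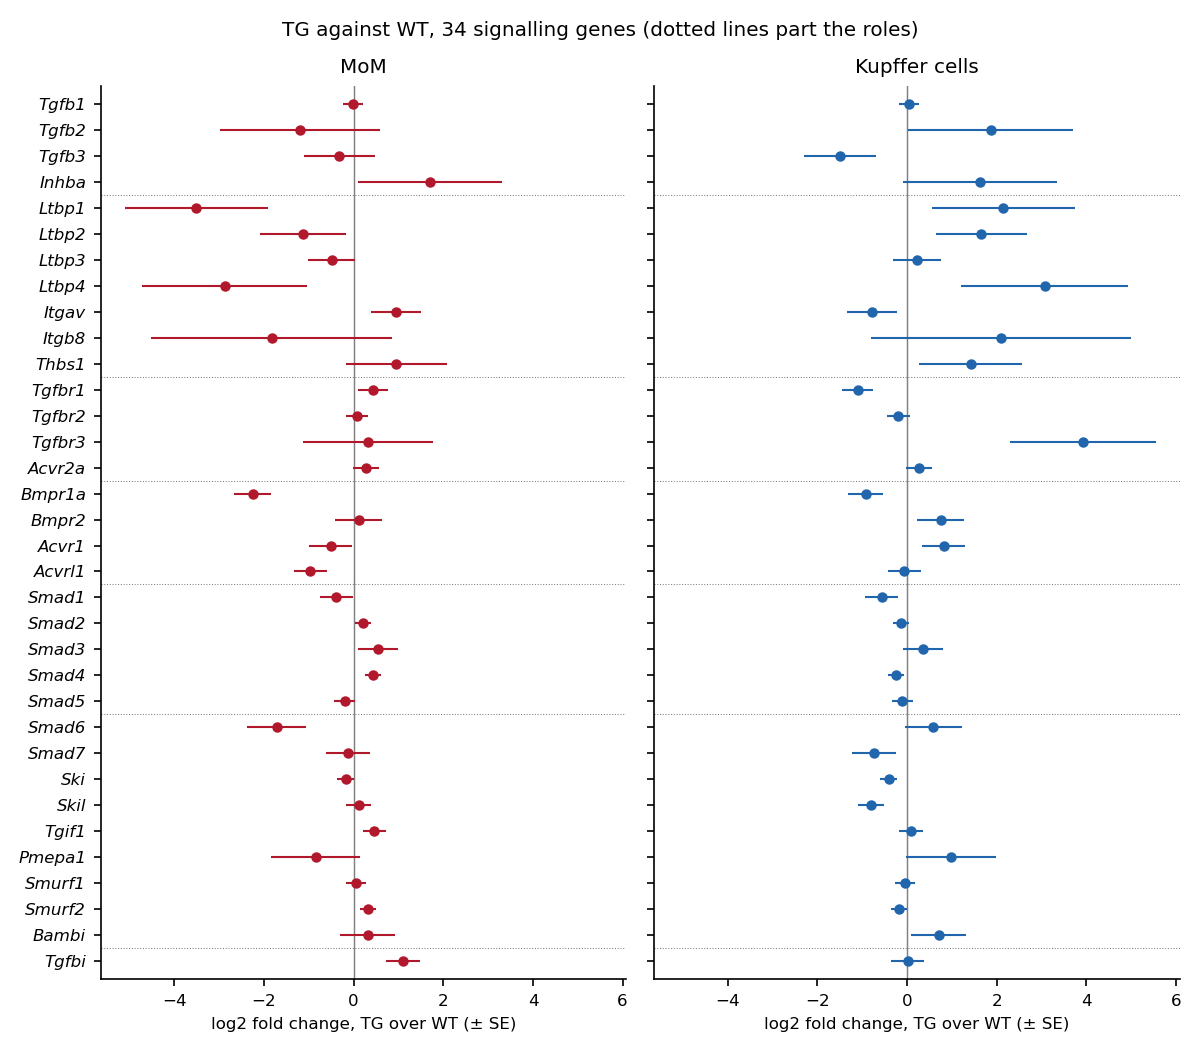
Log2 fold change of each of the 34 genes in TG over WT, in MoM and in Kupffer cells, on a shared axis with bars of 1 SE; members are grouped by role. No adjusted p was below 0.05; Bmpr1a lies at -2.25 in MoM and at -0.92 in Kupffer cells.

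Among the ligands Tgfb1 was by far the most abundant and stood at nearly the same level in both genotypes. It had 336 and 417 CPM in MoM TG, 338 and 420 CPM in MoM WT, 296 and 300 CPM in Kupffer TG, and 295 and 284 CPM in Kupffer WT. Every MoM library was above every Kupffer library. Over Kupffer cells MoM had a log2 fold change of 0.36 ± 0.16 (SE; adjusted p = 0.155), and that of TG over WT on average was 0.02 ± 0.16 (adjusted p = 0.992). The sign of the second value turned in 5 of 13 alternatives, which ranged from -0.07 to 0.10. Per length, Tgfb1 made up 78.3% to 98.7% of the summed RPKM of the 3 TGF-β isoforms.

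Tgfb3, the isoform second in level, had 9.26 and 2.88 CPM in MoM TG, 10.4 and 4.76 CPM in MoM WT, 21.8 and 7.12 CPM in Kupffer TG, and 54.8 and 26.5 CPM in Kupffer WT. Both Kupffer WT libraries were above the other 6. In Kupffer cells TG over WT gave a log2 fold change of -1.49 ± 0.80 (adjusted p = 0.732). That of MoM over Kupffer cells was -1.84 ± 0.57 (adjusted p = 0.0706), and without Kupffer TG replicate 2 it was -2.21 ± 0.53 (adjusted p = 0.0294). Its share of the 3 isoforms per length ran between 1.01% and 21.6%. Tgfb2 had 0.414 and 1.53 CPM in MoM TG, 0.185 and 4.28 CPM in MoM WT, 0.0756 and 2.88 CPM in Kupffer TG, and 0.503 and 0.299 CPM in Kupffer WT. It never exceeded 0.865% of the isoforms per length, and its groups overlapped in each comparison by genotype. Inhba, the βA chain of activin A, had 5.04 and 18.5 CPM in MoM TG, 0.618 and 6.56 CPM in MoM WT, 0.0756 and 1.77 CPM in Kupffer TG, and 0.0718 and 0.523 CPM in Kupffer WT. Its log2 fold change of MoM over Kupffer cells was 3.62 ± 1.25 (adjusted p = 0.0911), and without Kupffer TG replicate 2 it was 5.32 ± 1.40 (adjusted p = 0.0373).

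Thbs1, thrombospondin 1, had the largest called difference of the set. Its levels were 208 and 573 CPM in MoM TG, 55.5 and 350 CPM in MoM WT, 41.2 and 19.9 CPM in Kupffer TG, and 19.8 and 2.99 CPM in Kupffer WT. All MoM libraries exceeded all Kupffer libraries, though replicates within a group differed several-fold. Thbs1 rose in MoM by 3.91 ± 0.89 on the log2 scale (adjusted p = 0.0318). The call was lost without any single library other than MoM WT replicate 1 (adjusted p 0.0519 to 0.104). The 8 neutrophil markers summed to 117 and 3627 CPM in MoM TG, 56.9 and 546 CPM in MoM WT, 34.1 and 15 CPM in Kupffer TG, and 1.9 and 2.02 CPM in Kupffer WT, where 3 of the 8 were at 0 in each library. The 4 platelet markers summed to 8.28 to 19.4 CPM in MoM libraries and to 1.08 to 5.57 CPM in Kupffer libraries. Both sums were higher in every MoM library than in every Kupffer library, and their part in the result for Thbs1 was not tested.

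Itgav, the αv integrin chain, had 111 and 66.5 CPM in MoM TG, 48.0 and 44.6 CPM in MoM WT, 179 and 54.4 CPM in Kupffer TG, and 230 and 170 CPM in Kupffer WT. The log2 fold change of MoM over Kupffer cells in WT was -2.11 ± 0.57 (adjusted p = 0.108), with no overlap. It was called without either Kupffer TG library and in the fit of only the 4 WT libraries. Itgb8, a partner chain of αv, was at 0 counts in the first library of all 4 groups and at 13, 51, 18 and 4 counts in the second of MoM TG, MoM WT, Kupffer TG and Kupffer WT. A count of 0 allows up to 0.0926 to 0.113 CPM, a limit that covers counting error only. Ltbp3, which binds latent TGF-β, had 9.56 and 5.17 CPM in MoM TG, 7.01 and 13.6 CPM in MoM WT, 2.68 and 4.53 CPM in Kupffer TG, and 3.7 and 2.5 CPM in Kupffer WT. Its log2 fold change of MoM over Kupffer cells was 1.38 ± 0.38 (adjusted p = 0.0518). Exons of D030025P21Rik overlap 9.34% of the exon length of Ltbp2 on the other strand, and those of Orc4 overlap 7.84% of Acvr2a. Whether the counts used strand is not given in the sources used here.

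**Figure D3:**
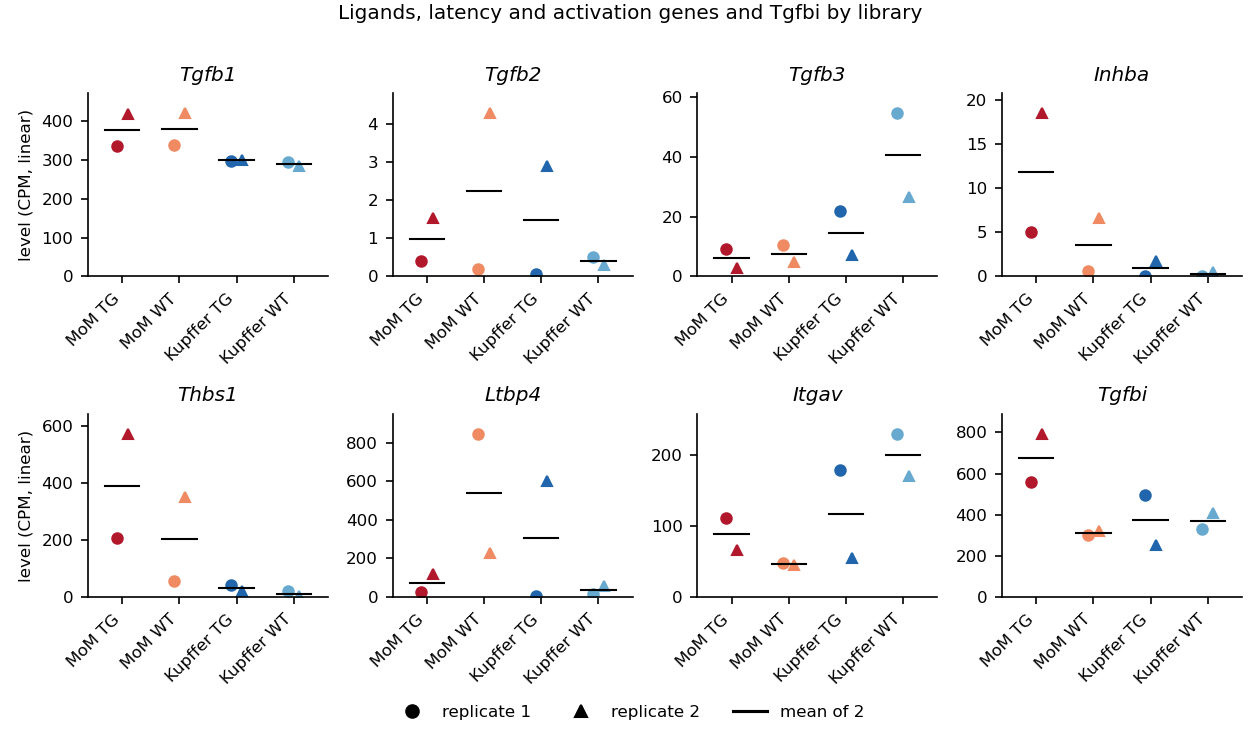
CPM on linear axes in each of the 8 libraries for the ligands, 3 latency and activation genes and Tgfbi, with replicates as symbols and group means as lines. Tgfb1 lies between 284 and 420 CPM throughout, and Ltbp4 reaches 603 CPM in 1 Kupffer TG library and 848 CPM in 1 MoM WT library.

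The type II receptor Tgfbr2 (chr9:116084293-116175360, GRCm38) was at like levels in both genotypes of MoM and slightly lower in TG Kupffer libraries. It had 249 and 178 CPM in MoM TG, 232 and 174 CPM in MoM WT, 319 and 289 CPM in Kupffer TG, and 349 and 345 CPM in Kupffer WT. All MoM libraries were below all Kupffer libraries. Between genotypes the log2 fold change was 0.07 ± 0.25 in MoM (adjusted p = 0.972) and -0.19 ± 0.25 in Kupffer cells (adjusted p = 0.887). The log2 fold change of MoM over Kupffer cells was -0.64 ± 0.18 (adjusted p = 0.0543). Counts per gene do not tell a truncated receptor from the full one, so Tgfbr2 does not check the labels.

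Tgfbr1, the type I receptor of TGF-β (chr4:47353222-47414931, GRCm38), was low in the TG Kupffer cells. It had 158 and 83.2 CPM in MoM TG, 100 and 79.4 CPM in MoM WT, 87.6 and 69.5 CPM in Kupffer TG, and 177 and 160 CPM in Kupffer WT. In Kupffer cells both TG libraries lay below both WT libraries, while in MoM the genotypes overlapped. The log2 fold change of TG over WT in Kupffer cells was -1.10 ± 0.34 (adjusted p = 0.73), and that in MoM was 0.43 ± 0.33 (adjusted p = 0.849). The difference between these effects was 1.53 ± 0.47 (adjusted p = 0.626).

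The authors' deposited table of TG against WT lists 179 genes, 28 lower and 151 higher in TG, and Tgfbr1 is its only member of the 34. It does not name the cell type, but its mean levels lay within 1% of the mean of the 4 Kupffer libraries for 179 of 179 genes. For Tgfbr1 the authors' deposited table gives a log2 fold change of -1.085 (SE 0.2687, adjusted p = 0.00638). DESeq2 on only the 4 Kupffer libraries gave -1.08 (adjusted p = 0.0068) and called 2 members, Tgfbr1 and Skil, beside 1.03% of all genes, whereas DESeq2 on all 8 libraries gave an adjusted p of 0.173. The authors' deposited table also lists Itgb5, an integrin chain that pairs with αv, at -1.351 (SE 0.35, adjusted p = 0.01183). Per length, Tgfbr2 exceeded Tgfbr1 in every library. The ratio was 1.25 and 1.71 in MoM TG, 1.85 and 1.75 in MoM WT, 2.90 and 3.32 in Kupffer TG, and 1.58 and 1.72 in Kupffer WT.

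Tgfbr3, the co-receptor betaglycan, had 45.7 and 41.3 CPM in MoM TG, 39.2 and 30.4 CPM in MoM WT, 1.06 and 82.9 CPM in Kupffer TG, and 1.58 and 3.96 CPM in Kupffer WT. Among Kupffer libraries only TG replicate 2 was high. The log2 fold change of TG over WT in Kupffer cells was 3.92 ± 1.63 (adjusted p = 0.73). It was -1.33 without TG replicate 2 and 4.89 without TG replicate 1, the setting in which it was called (adjusted p = 0.0215). Acvr2a, a type II activin receptor, had group means of 28.5 CPM in MoM TG, 23.5 CPM in MoM WT, 19.4 CPM in Kupffer TG and 16 CPM in Kupffer WT.

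**Figure D4:**
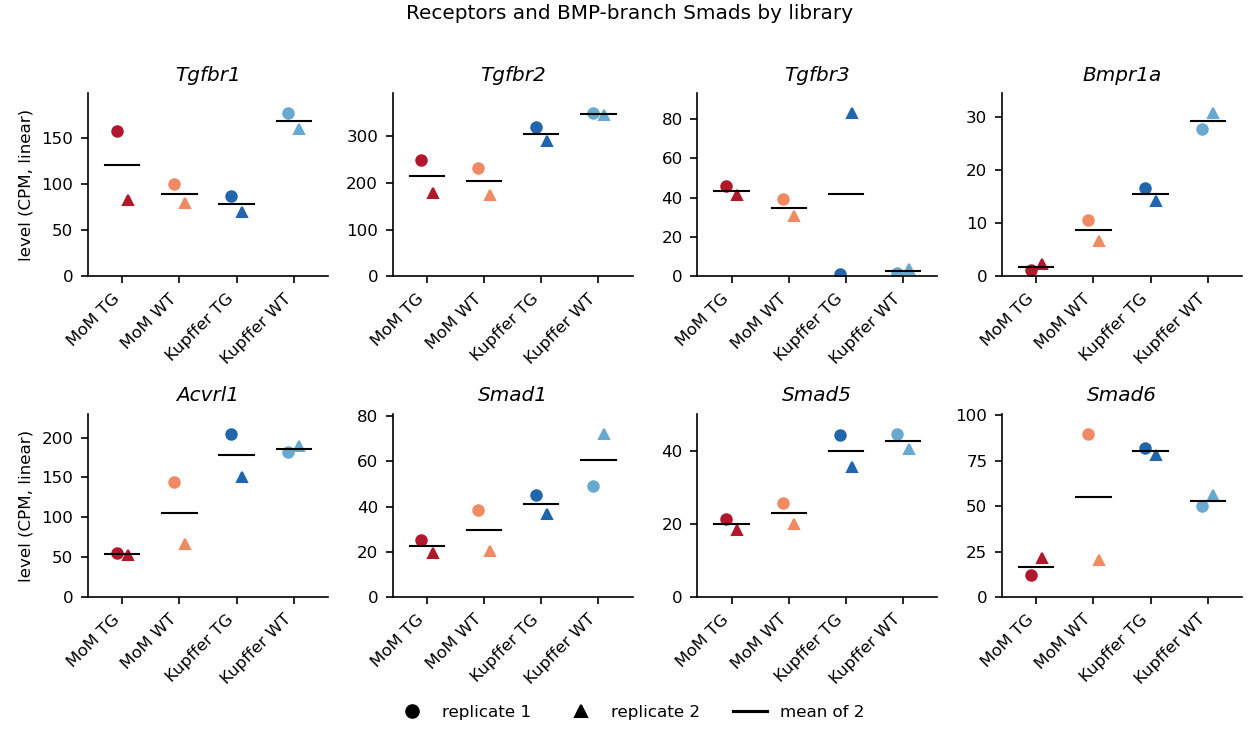
CPM on linear axes in each of the 8 libraries for the receptors and selected Smads, with replicates as symbols and group means as lines. Bmpr1a is lowest in MoM TG (1.24 and 2.40 CPM) and highest in Kupffer WT (27.7 and 30.8 CPM).

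Bmpr1a, a type I receptor of BMP (chr14:34410734-34503341, GRCm38), was the member with the smallest p in both the MoM and the averaged genotype comparison and in all 3 comparisons between macrophage types. It had 1.24 and 2.40 CPM in MoM TG, 10.6 and 6.76 CPM in MoM WT, 16.7 and 14.2 CPM in Kupffer TG, and 27.7 and 30.8 CPM in Kupffer WT. The 4 groups did not overlap and ran in that order. Bmpr1a fell in MoM by 2.42 ± 0.29 on the log2 scale on average (adjusted p = 0.00888) and by 3.08 ± 0.42 within TG (adjusted p = 0.0312). Within WT the log2 fold change was -1.75 ± 0.39 (adjusted p = 0.0857). The averaged call was just lost without Kupffer WT replicate 1 (adjusted p = 0.0504) or replicate 2 (0.056), and the TG call was lost without Kupffer TG replicate 1, either MoM TG library or either Kupffer WT library (0.0917 to 0.165).

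Between genotypes Bmpr1a had a log2 fold change of TG over WT of -2.25 ± 0.41 in MoM (adjusted p = 0.618) and -0.92 ± 0.39 in Kupffer cells (adjusted p = 0.73). The average was -1.58 ± 0.28 (adjusted p = 0.401), and the difference between the effects was -1.33 ± 0.55 (adjusted p = 0.626). DESeq2 on all 8 libraries called Bmpr1a in MoM (adjusted p = 0.000456) and on average (adjusted p = 0.000146), so the call depends on the tool. Kupffer markers differed between the MoM libraries too. Their sum was 9098 CPM in MoM WT replicate 1, where Bmpr1a had 10.6 CPM, and 190 CPM in MoM WT replicate 2, where Bmpr1a had 6.76 CPM. In MoM TG the sums were 578 and 340 CPM. Without MoM WT replicate 1 the log2 fold change of Bmpr1a in MoM was -1.88. The part of Kupffer cells in the genotype difference of Bmpr1a was not tested.

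Acvrl1, a type I receptor known from endothelium, had 54.7 and 52.3 CPM in MoM TG, 144 and 66.2 CPM in MoM WT, 205 and 151 CPM in Kupffer TG, and 182 and 189 CPM in Kupffer WT. All MoM libraries lay below all Kupffer libraries. Acvrl1 fell in MoM by 1.28 ± 0.27 on the log2 scale (adjusted p = 0.0265), and its log2 fold change of TG over WT in MoM was -0.97 ± 0.37 (adjusted p = 0.755). Without MoM WT replicate 1, the library with 144 CPM, that value between genotypes was -0.30 ± 0.26. The call was lost without either MoM TG or either Kupffer WT library (adjusted p 0.0867 to 0.0951), and without both libraries rich in endothelial markers the value was -1.78 (adjusted p = 0.00181). Bmpr2, the type II receptor of BMP, and Acvr1, another type I receptor, stood at 77.0 to 134 CPM and at 14.2 to 28.3 CPM outside Kupffer TG replicate 2, which had 235 and 50.3 CPM.

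Among the Smads, Smad5 and Smad1 of the BMP branch had negative log2 fold changes of MoM over Kupffer cells and Smad3 of the TGF-β branch a positive one, but only Smad5 passed the test. Smad5 had 21.5 and 18.5 CPM in MoM TG, 25.9 and 20.1 CPM in MoM WT, 44.4 and 35.6 CPM in Kupffer TG, and 44.9 and 40.7 CPM in Kupffer WT. Every MoM library was below every Kupffer library. Smad5 fell in MoM by 0.95 ± 0.16 on the log2 scale (adjusted p = 0.018). The call was lost without either MoM TG library, either Kupffer WT library or MoM WT replicate 2 (adjusted p 0.0519 to 0.0825).

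Smad1 had 25.4 and 19.5 CPM in MoM TG, 38.7 and 20.3 CPM in MoM WT, 45.1 and 36.9 CPM in Kupffer TG, and 49.0 and 72.3 CPM in Kupffer WT. Its log2 fold change of MoM over Kupffer cells was -0.95 ± 0.26 (adjusted p = 0.0522), and it was called with median-of-ratios size factors and with no filter. Smad3 had 74.4 and 55.9 CPM in MoM TG, 31.1 and 57.9 CPM in MoM WT, 17.7 and 38.2 CPM in Kupffer TG, and 19.6 and 24.0 CPM in Kupffer WT. Its log2 fold change was 1.13 ± 0.32 (adjusted p = 0.0569). Smad2 varied little, between 52.9 and 69.7 CPM. Its log2 fold change was 0.02 ± 0.13 (adjusted p = 0.935).

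Smad4, the shared partner Smad, had 95.6 and 76.7 CPM in MoM TG, 62.7 and 63.8 CPM in MoM WT, 58.5 and 55.0 CPM in Kupffer TG, and 66.7 and 67.4 CPM in Kupffer WT. TG lay above WT in MoM and below WT in Kupffer cells, without overlap in either. The difference between the MoM and the Kupffer effect was 0.69 ± 0.25 on the log2 scale (adjusted p = 0.626).

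Of the 9 inhibitors and feedback genes, none passed the test in any of the 7 comparisons with edgeR on all libraries. DESeq2 on all 8 libraries called Skil and Smad6 between MoM and Kupffer cells on average, with log2 fold changes of 0.66 (adjusted p = 0.0325) and -1.16 (adjusted p = 0.049). Without MoM WT replicate 1 edgeR called both on average too, at 0.85 (adjusted p = 0.0219) and -1.83 (adjusted p = 0.0122). Within TG the same settings called both as well. Smad7, the inhibitory Smad induced by TGF-β, had 89.1 and 48.5 CPM in MoM TG, 93.7 and 55.8 CPM in MoM WT, 83.7 and 45.7 CPM in Kupffer TG, and 76.6 and 138 CPM in Kupffer WT. Its replicates differed as much as its groups. Smad6, the inhibitor of the BMP branch, had 12.2 and 21.3 CPM in MoM TG, 90.0 and 20.3 CPM in MoM WT, 82.0 and 78.4 CPM in Kupffer TG, and 50.2 and 56.0 CPM in Kupffer WT. Its log2 fold change of TG over WT in MoM was -1.72 ± 0.66 (adjusted p = 0.755). That value moved to -0.27 without MoM WT replicate 1, the library with 90.0 CPM.

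Skil, a repressor of Smads that TGF-β itself induces, had 556 and 528 CPM in MoM TG, 377 and 624 CPM in MoM WT, 251 and 235 CPM in Kupffer TG, and 447 and 401 CPM in Kupffer WT. In Kupffer cells TG lay below WT without overlap. TG over WT there gave a log2 fold change of -0.80 ± 0.29 (adjusted p = 0.73). Ski, its relative, had 128 and 108 CPM in MoM TG, 138 and 129 CPM in MoM WT, 103 and 117 CPM in Kupffer TG, and 141 and 151 CPM in Kupffer WT. TG was below WT without overlap in both types, and the averaged log2 fold change was -0.29 ± 0.13 (adjusted p = 0.792).

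Smurf2, a ubiquitin ligase for receptors and Smads, had 99 and 89 CPM in MoM TG, 80.7 and 68.8 CPM in MoM WT, 72.4 and 79.7 CPM in Kupffer TG, and 82.7 and 88.5 CPM in Kupffer WT. Like Smad4 it was ordered in opposite ways by genotype, with a difference between the MoM and the Kupffer effect of 0.50 ± 0.25 on the log2 scale (adjusted p = 0.626). Smurf1 ranged between 50.3 and 66.3 CPM, Tgif1 (a repressor) between 119 and 226 CPM, Bambi (a decoy receptor) between 4.67 and 23.6 CPM, and Pmepa1 (an inhibitor of Smad activation) between 0.983 and 21.8 CPM.

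Tgfbi had 560 and 794 CPM in MoM TG, 303 and 323 CPM in MoM WT, 497 and 254 CPM in Kupffer TG, and 329 and 409 CPM in Kupffer WT. Both MoM TG libraries were above all others, and the Kupffer genotypes overlapped. The log2 fold change of TG over WT was 1.11 ± 0.38 in MoM (adjusted p = 0.755) and 0.57 ± 0.26 on average (adjusted p = 0.792).

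A difference in genotype effect, MoM minus Kupffer cells, was called by edgeR for 0 members and 0% of all genes. DESeq2 on all 8 libraries called 0 members and 0.244% of all genes. At an unadjusted p below 0.05 in edgeR were 5 members, beside 6.42% of all genes. Those 5 were Tgfbr1, Smad4, Smad6, Ltbp1 and Bmpr1a. Smad4 and Smurf2 were the 2 members whose TG libraries lay above WT in MoM and below WT in Kupffer cells, beside 3.98% of all genes. The reverse order held for 0 members and 2.6% of all genes.

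Kupffer TG replicate 2 held more than 2 times the level of every other Kupffer library in 10 of the 34 genes: Tgfb2, Inhba, Ltbp1, Ltbp2, Ltbp4, Itgb8, Tgfbr3, Bmpr2, Acvr1 and Pmepa1. This 2-fold rule was chosen after the values were seen. The share of all genes that met it is not given, so the count does not set the members apart from other genes. Ltbp4, a latent TGF-β binding protein of the matrix, had 25.8 and 121 CPM in MoM TG, 848 and 230 CPM in MoM WT, 7.14 and 603 CPM in Kupffer TG, and 13.4 and 59.4 CPM in Kupffer WT. The endothelial receptor gene Kdr had 60.3 and 297 CPM in MoM TG, 946 and 277 CPM in MoM WT, 17.8 and 1107 CPM in Kupffer TG, and 17.0 and 60.7 CPM in Kupffer WT. Ltbp4 was thus highest in the pair of libraries where Kdr was highest. Of the 10 genes, only Ltbp4 and Ltbp2 were also more than 2 times as high in MoM WT replicate 1 as in every other MoM library. Tgfb2 and Inhba had their lowest MoM levels in that library, 0.185 and 0.618 CPM. Hepatocyte markers summed to 848 CPM, stellate cell and fibroblast markers to 130 CPM and T and NK cell markers to 232 CPM in Kupffer TG replicate 2, against 9.83, 8.01 and 46.1 CPM in replicate 1. Hepatocyte markers were also at 564 and 581 CPM in MoM WT and at 436 CPM in Kupffer WT replicate 2. The part of these cells in the levels of the 10 genes was not tested.

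Among MoM libraries, WT replicate 1 held more than 2 times the level of every other in 4 members (Ltbp2, Ltbp4, Acvrl1 and Smad6) and WT replicate 2 in 3 (Tgfb2, Ltbp1 and Itgb8). Here too the share of all genes is not given. Without both Kupffer TG replicate 2 and MoM WT replicate 1, 18 members were called between MoM and Kupffer cells on average, 10 higher and 8 lower, beside 31.7% of all genes. The 4 genes called with all libraries were among them. Tgfbr3 had a log2 fold change of 4.34 ± 0.45 in that fit (adjusted p = 0.00275), against 1.85 ± 1.06 with all libraries (adjusted p = 0.258). Smad3, Smad1, Tgfbr2 and Ltbp3 were called there too, at 1.58, -1.36, -0.86 and 1.73. Between TG and WT the same fit called 0 members in each type.

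**Figure D5:**
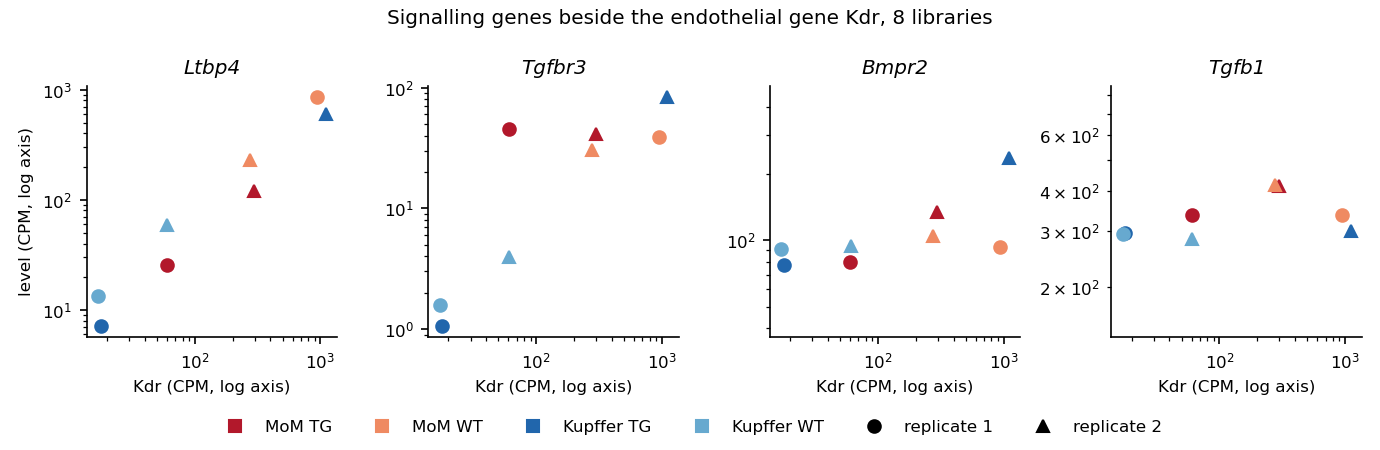
CPM of Ltbp4, Tgfbr3, Bmpr2 and Tgfb1 against CPM of the endothelial gene Kdr in each of the 8 libraries, on log axes, with colours for groups and symbols for replicates. Ltbp4 reaches 848 and 603 CPM in the libraries with 946 and 1107 CPM of Kdr, while Tgfb1 stays between 284 and 420 CPM.

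Of 66 further genes of the pathway in the files, 54 passed the filter. Between TG and WT edgeR called 0 of them in Kupffer cells, in MoM and on average. DESeq2 on all 8 libraries called 2, 1 and 1, beside 1.31%, 0.733% and 1.29% of all genes. Between MoM and Kupffer cells on average 5 of the 54 were called, 3 higher and 2 lower. The background was 18.7% of all genes, 10.6% higher and 8.05% lower in MoM, so 5 of 54 is not a high count. Tgif2, a repressor, rose by 2.77 ± 0.46 on the log2 scale (adjusted p = 0.0165), Zfyve9, which brings Smads to the receptor, by 1.37 ± 0.24 (adjusted p = 0.0179), and Strap, which binds receptors and Smad7, by 0.54 ± 0.13 (adjusted p = 0.037). Id1 fell by 1.64 ± 0.41 (adjusted p = 0.04) and Smad9 by 3.86 ± 0.97 (adjusted p = 0.0406).

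Id1 is a target of BMP signalling, and Smad9 is the remaining Smad of the BMP branch. Id1 had 31.6 and 31.3 CPM in MoM TG, 90.3 and 35.6 CPM in MoM WT, 162 and 59.1 CPM in Kupffer TG, and 183 and 167 CPM in Kupffer WT. Smad9 had 0 and 0.139 CPM in MoM TG, 1.73 and 0.193 CPM in MoM WT, 3.55 and 2.14 CPM in Kupffer TG, and 4.24 and 6.53 CPM in Kupffer WT. For both, the MoM WT library with the high Kupffer markers was the highest of the MoM libraries. Of 13 transcripts known to be induced by TGF-β or BMP, edgeR on all libraries called only Id1, and only in this comparison, beside 18.7% of all genes. DESeq2 on all 8 libraries called at least Skil, Smad6 and Ltbp3 of them here, beside 23.4% of all genes. Zfyve9 was also called within TG, with 96.6 and 69.3 CPM in MoM TG against 17.7 and 24.3 CPM in Kupffer TG. In MoM WT it had 17.2 and 28.5 CPM, and in Kupffer WT 14.6 and 12.3 CPM.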

How the data were processed

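RNA was sequenced in 8 libraries of mouse hepatic macrophages, grouped by the labels' titles. The authors' deposited files hold raw counts, 1 whole number per gene symbol. Reads were aligned to mm10 with STAR 2.5.2b, per the submitters' processing notes; how genes were counted, and whether by strand, is not given in the sources used here. Even numbers made up 65% to 68% of counts of 1 to 19, so mates may have been counted separately and counting error understated. A further deposited table of the authors has, per the file headers, the columns DESeq2 writes. Per the file headers, the authors gave a mean of normalized counts (another unit), log2 fold changes and their SE, a Wald score, p-values and adjusted p-values. It was compared with the Kupffer libraries by its means.

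All 8 libraries were fitted with 4 group means in edgeR 4.0.16 (R 4.3.3) with filterByExpr, TMM and the quasi-likelihood F-test, which is two-sided. Benjamini-Hochberg adjustment ran over all 15254 genes tested, with calls at adjusted p below 0.05. Biological variation, as a common coefficient, was 0.507. The 7 comparisons were TG against WT in MoM, in Kupffer cells and averaged, MoM against Kupffer cells in TG, in WT and averaged, and the interaction. Exon lengths and gene positions came from GENCODE M21 (GRCm38, the assembly of mm10) and promoters from RefSeq. The fit was also run on simulated counts with known changes, which held no mixture of cell types. That outcome is not given here, and no result rests on it. The members and all lists of genes were chosen with earlier results of these data known. Every member is accounted for. Library values are given for the TGF-β ligands, their receptors, Smad7, each member called and the 3 smallest p per comparison, and for some further members chosen after their values were seen. Other genes are named where called, or where the authors list them.

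Alternatives were size factors, no filter, the replicate number as a block, only the 4 libraries compared, each library left out, both libraries rich in endothelial markers left out, and DESeq2 1.42.0. Of that pair, MoM WT replicate 1 was also the MoM library with the highest Kupffer markers, so leaving it out changes more than endothelial content. DESeq2 on only the 4 libraries compared was added after seeing the data. Figures were drawn with matplotlib 3.10.9.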

Additional observations from a re-analysis of the deposited data

Results flagged for a closer look

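Smad4 and Smurf2 drew attention because the genotypes were ordered in opposite ways in the 2 macrophage types: in MoM the TG libraries were the higher pair, and in Kupffer cells the lower pair. For Smad4 the difference of MoM minus Kupffer effects was 0.69 on the log2 scale, and for Smurf2 it was 0.50. Neither passed edgeR's quasi-likelihood test of that difference (adjusted p = 0.626 for each). Over the 13 alternatives the value ranged from 0.53 to 0.84 for Smad4 and from 0.39 to 0.63 for Smurf2, and no alternative called either. Of all genes, 3.98% showed this order. With 2 libraries in a group, single libraries could not be tested as outlying.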

How the results depend on the processing

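With 2 libraries per group, a lone library left after leaving out its partner is assumed to vary like the others, and single-gene calls rest on small margins. The fit of only the 4 libraries compared was not run for averages or the interaction, which need all 8. The labels name nothing that same-numbered libraries share, and with 2 numbers their deviations (correlations of -0.07 to 0.59, above 0.1 in 5 of 6 pairs of groups) were not taken as pairing. Of 457 alternative values for 33 single-gene results, 370 kept direction and side of the threshold, 25 lost a call, 53 gained one and 9 turned sign. Those that turned were Tgfbr3 in Kupffer cells (-1.33 without TG replicate 2, alone or with MoM WT replicate 1), Tgfbr2 in MoM (-0.18 without TG replicate 1, -0.12 without WT replicate 2) and the averaged Tgfb1 effect (-0.07 without MoM TG replicate 2, -0.06 without MoM WT replicate 1, -0.00 without Kupffer TG replicate 1, -0.01 without Kupffer WT replicate 2, -0.05 without both endothelial-rich libraries). Without single libraries these 3 results ran from -1.33 to 4.89, from -0.18 to 0.30 and from -0.07 to 0.10. The cause was not tested.

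Members called between MoM and Kupffer cells on average were 4 (18.7% of all genes). With the replicate block they were 8 (20.8%), Thbs1 lost (adjusted p = 0.0572) and Itgav, Smad3, Tgfbr2, Tgfb3 (-1.85, adjusted p = 0.00981) and Inhba (3.93, adjusted p = 0.0136) gained. Leaving out single libraries gave 0 to 13 (0.526% to 28.1% of all genes): 0 without either Kupffer WT library, 1 without either MoM TG library, 2 without MoM WT replicate 2, 10 when MoM WT replicate 1 was left out, and 3 and 13 when replicates 1 and 2 of Kupffer TG were. Without both endothelial-rich libraries there were 18 (31.7%), and with DESeq2 13 (23.4%). Within TG the count was 1 (2.5% of all genes), against 6 with DESeq2 (13.3%). It was 0 with only the 4 libraries (0%) and 9 with DESeq2 on those (19.3%). Leaving out any single library, or both endothelial-rich libraries, moved the count, and the share of all genes called moved the same way. Within WT the count was 0 (1.17%), against 1 with the block (Tgfb3, beside 1.53%) and 10 with DESeq2 (14.9%). It was 4 with only the 4 libraries (10.9%) and 14 with DESeq2 on those (21%). Members were also called without either Kupffer TG library and without both endothelial-rich libraries, where the share of all genes called rose too. Between TG and WT in Kupffer cells the count of 0 became 2 with DESeq2 on 4 libraries (1.03% of all genes). Among single libraries, only leaving out Kupffer TG replicate 1 changed it, through Tgfbr3 (log2 fold change 4.89). Genes outside the set were called in that setting too. In MoM the count of 0 became 1 with DESeq2 (0.733% of all genes) and 2 on 4 libraries (1.19%), Bmpr1a in both and Ltbp4 on 4 libraries. On average the count became 1 with DESeq2 (1.29%). The block changed no call between TG and WT, and the interaction had 0 members called in every alternative.

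Members whose groups did not overlap numbered 14 between TG and WT in Kupffer cells (14 to 30 without single libraries), 14 in MoM (14 to 27) and 2 in both types (2 to 7). Between MoM and Kupffer cells they numbered 18 in TG (17 to 30), 25 in WT (25 to 34) and 7 with all 4 MoM libraries apart from all 4 Kupffer libraries (7 to 16), and 2 were in opposite order (3 to 9). Groups of 1 library cannot overlap within themselves, which raises these counts.

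The further pathway genes called on average were 5 between MoM and Kupffer cells (9 with the block, 0 to 21 without single libraries, 23 without both, 13 with DESeq2). Within TG they were 1 (0 with size factors, 0 with the block, 0 to 2 without single libraries, 8 without both, 8 with DESeq2, 0 with only 4 libraries, 10 with DESeq2 on those). Within WT they were 0 (0 to 6 without single libraries, 9 without both, 11 with DESeq2, 10 with only 4 libraries, 23 with DESeq2 on those). Between TG and WT they were 0 in Kupffer cells (2 with DESeq2, beside 1.31% of all genes, and 1 on 4 libraries, beside 1.03%). In MoM they were 0 (1 with DESeq2, beside 0.733%, and 1 on 4 libraries, beside 1.19%). On average they were 0 (1 with DESeq2, beside 1.29%). For the interaction they were 0 with all libraries. Leaving out single libraries could raise the count above 0 between TG and WT in Kupffer cells, and for the interaction. It did not do so in MoM or on average. For MoM against Kupffer cells, shares of all genes with DESeq2 are those given above for the members.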
